A study of Mus musculus with 5 samples.

Results

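The genes described here are the 3 orphan nuclear receptors of the NR4A family (Nr4a1, Nr4a2 and Nr4a3), Arc, the kinase gene Pim1, and the immediate early response genes Ier2 and Ier3. They are 7 of the 21590 genes in the authors' deposited comparison tables. They were chosen by symbol from rapid-response genes with their fold changes in all 4 tables already known, so every fold change, adjusted p and group level of these genes below is a description, and none is independent evidence.

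RNA sequencing was run on whole mouse lungs of a mixed 129S6, C57BL/6 and BALB/c background. The series asks how lungs without claudin-4, a tight junction protein of epithelia encoded by Cldn4, differ from wild type lungs in ventilator-induced lung injury (VILI). KO_VILIhigh lungs came from Cldn4 knockout mice ventilated for 2 h at 40 cmH2O whose injury exceeded that of wild type mice. KO_VILIlow lungs came from knockouts under the same ventilation with injury like that of wild type mice. WT_VILI lungs came from wild type mice ventilated in that way. KO_noVILI and WT_noVILI lungs were taken directly from knockout and wild type mice without ventilation. The submitters formed both ventilated knockout groups from the degree of injury, so comparisons with them concern lungs sorted by outcome. The design text gives duplicates for each group, without saying that they came from separate mice, so the deposited p measures only the spread between those libraries. Ages, and how the Cldn4 allele was deleted, are not given in the sources used here.

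Immediate early genes are transcribed within minutes of a stimulus from factors already present in the cell, with no need for new protein. The NR4A receptors belong to this class. They have no established natural ligand, so the amount of protein largely sets their activity, and they bind DNA as monomers at a response element called NBRE or as dimers, for NR4A1 and NR4A2 also with the retinoid X receptors. Cyclic AMP acting through CREB at the cAMP response element (CRE), calcium, growth factors and cell stretch are known inducers.

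The authors' deposited tables hold a log2 fold change, a mean abundance and a test per gene for each comparison, and no value per library was used here. Group levels are therefore given as 1 rebuilt value per group in CPM (read counts scaled to a common library total, on a linear scale), computed from the fold change and the mean abundance, without a spread between animals. An implied standard error (SE) is given beside a fold change, the value that turns the deposited p back into a normal deviate of that size. Cldn4 stood at rebuilt levels of 0.122 CPM in KO_VILIhigh, 0.0212 CPM in KO_VILIlow and 0.14 CPM in KO_noVILI, against 139.7 CPM in WT_VILI and 9.38 CPM in WT_noVILI. Xist, the RNA that silences an X chromosome in female cells, had rebuilt levels of 2.56 to 6.13 CPM in the 3 ventilated groups and 505 and 891 CPM in KO_noVILI and WT_noVILI, while Y-linked Ddx3y had 90.7 to 115 CPM in the ventilated groups and 0.421 and 0.234 CPM in KO_noVILI and WT_noVILI. Ventilation and these sex-linked transcripts therefore moved together in every comparison of ventilated with unventilated lungs, and the parts of sex and ventilation cannot be told apart there. In whole lung, more cells of an expressing type and more RNA per cell cannot be told apart either.

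**Figure D1:**
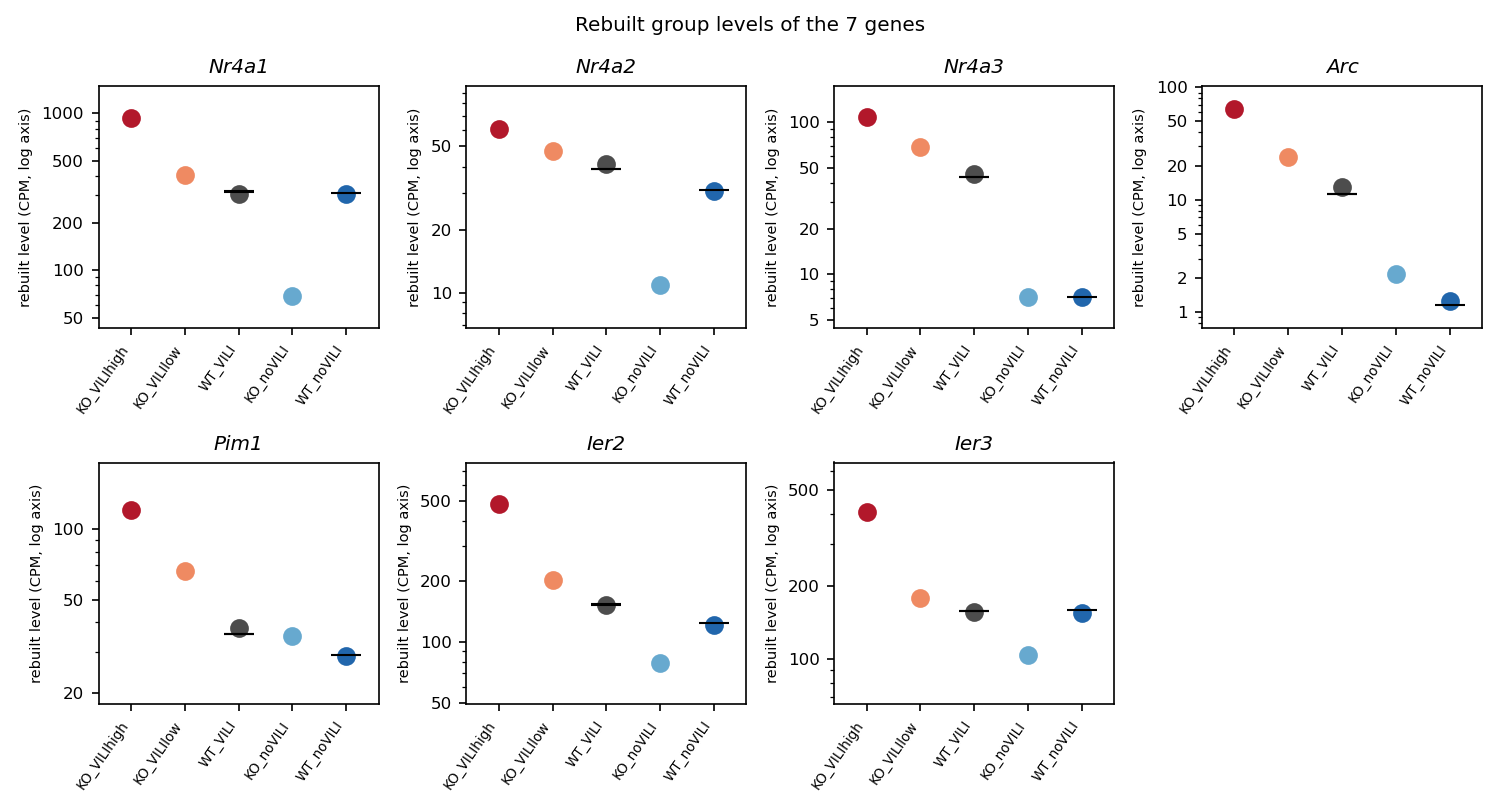
Rebuilt level of each gene in CPM (log axis) in the 5 groups. Circles are the values given in the text, and short black lines are the same wild type groups rebuilt from the other tables that hold them. KO_VILIhigh was the top group for each of the 7 genes, with Nr4a1 at 934 CPM and Arc at 64.3 CPM. The unventilated groups were the lowest for Arc, Nr4a3, Nr4a2, Pim1 and Ier2, while for Nr4a1 and Ier3 WT_noVILI lay close to WT_VILI.

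Nr4a1 encodes NUR77, the most abundant NR4A transcript in these lungs. It stood at a rebuilt 934 CPM in KO_VILIhigh, 403 CPM in KO_VILIlow, 308 CPM in WT_VILI, 68.9 CPM in KO_noVILI and 308 CPM in WT_noVILI. The highest and lowest groups were thus both knockout groups, and the rebuilt level was the same in ventilated and unventilated wild type lungs. Nr4a1 was 4.47-fold lower in KO_noVILI than in WT_noVILI lungs, with a log2 fold change of -2.16 (implied SE 0.43, adjusted p = 8.37e-05 in the authors' deposited table). In WT_VILI against WT_noVILI the log2 fold change was -0.02, with an implied 95% interval of -0.39 to 0.36 (adjusted p = 1 in the authors' deposited table). KO_VILIhigh against WT_VILI gave 1.56 (implied SE 0.20, adjusted p = 5.24e-12) and KO_VILIlow against WT_VILI 0.33 (implied SE 0.18, adjusted p = 1), both from the authors' deposited tables.

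Nr4a2 encodes NURR1, known for its role in dopamine neurons and also induced in activated macrophages. Its rebuilt levels were 60.5 CPM in KO_VILIhigh, 47.5 CPM in KO_VILIlow, 41.0 CPM in WT_VILI, 10.9 CPM in KO_noVILI and 30.7 CPM in WT_noVILI. As for Nr4a1, KO_VILIhigh was highest and KO_noVILI lowest, and the range at the top was narrower than for Nr4a1. The rebuilt level was higher in WT_VILI than in WT_noVILI, where that of Nr4a1 was the same in both. The fall in KO_noVILI against WT_noVILI had a log2 fold change of -1.49 (implied SE 0.32, adjusted p = 0.000311 in the authors' deposited table). No other comparison passed the threshold: the authors' deposited tables give log2 fold changes of 0.64 in KO_VILIhigh against WT_VILI (implied SE 0.25, adjusted p = 0.27), 0.29 in KO_VILIlow against WT_VILI (implied SE 0.19) and 0.41 in WT_VILI against WT_noVILI (implied SE 0.24).

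Nr4a3 encodes NOR1, the NR4A receptor described in vascular smooth muscle and endothelium as growth factor responsive. It stood at a rebuilt 108 CPM in KO_VILIhigh, 69.0 CPM in KO_VILIlow, 45.9 CPM in WT_VILI and 7.14 CPM in both KO_noVILI and WT_noVILI. Each ventilated group lay 6.42-fold or more above both unventilated groups, a wider gap than for the other NR4A genes. The rise in WT_VILI against WT_noVILI was 2.68 on the log2 scale (implied SE 0.45, adjusted p = 1.83e-07 in the authors' deposited table). Against WT_VILI, the authors' deposited tables give 1.31 in KO_VILIhigh (implied SE 0.28, adjusted p = 0.000344) and 0.66 in KO_VILIlow (implied SE 0.18, adjusted p = 0.0407). For KO_noVILI against WT_noVILI the authors' deposited table lists a fold change of exactly 0 with a p of 1, so no SE can be given. The WT_noVILI level rebuilt from the WT_VILI table, 7.15 CPM, lay within 0.002 log2 of the mean over both unventilated groups. Among unventilated lungs, 79 genes including Nr4a3 were listed at an exact 0 although their mean log2 CPM was 2 or more.

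Set per kilobase of transcript, which allows levels of different genes to be compared, Nr4a1 made up 91.1% of summed NR4A transcript in KO_VILIhigh, 86.2% in KO_VILIlow, 86.1% in WT_VILI, 86.2% in KO_noVILI and 92.5% in WT_noVILI. Nr4a3 took 4.72%, 6.58%, 5.72%, 3.99% and 0.957% of the sum in the same order of groups. The summed NR4A level was 402 CPM per kb in KO_VILIhigh, 183 in KO_VILIlow, 140.2 in WT_VILI, 31.3 in KO_noVILI and 130.4 in WT_noVILI.

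The upstream sequences of the 3 receptor genes are shown because these genes belong to 1 family, are known CRE-driven genes and differed in how they followed ventilation. They are the 250 bases before the annotated start, from RefSeq on build GRCm38.p6, while the authors aligned to mm9 and their tables hold no coordinates. Capitals mark each match to the CRE core TGACG or its reverse complement CGTCA. Nr4a1 lies at chr15:101266596-101266845 (+ strand), Nr4a2 at chr2:57124004-57124253 (- strand) and Nr4a3 at chr4:48045055-48045304 (+ strand).
Nr4a1: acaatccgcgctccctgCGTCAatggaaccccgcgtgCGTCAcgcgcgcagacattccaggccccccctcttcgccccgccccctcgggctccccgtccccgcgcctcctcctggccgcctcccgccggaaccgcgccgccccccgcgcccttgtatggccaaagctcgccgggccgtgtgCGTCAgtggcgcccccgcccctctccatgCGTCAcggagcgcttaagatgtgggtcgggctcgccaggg
Nr4a2: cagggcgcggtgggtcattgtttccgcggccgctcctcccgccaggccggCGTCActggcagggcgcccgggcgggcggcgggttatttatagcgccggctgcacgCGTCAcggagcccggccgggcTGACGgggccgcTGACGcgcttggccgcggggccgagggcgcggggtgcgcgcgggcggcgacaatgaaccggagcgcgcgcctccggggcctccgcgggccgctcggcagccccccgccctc
Nr4a3: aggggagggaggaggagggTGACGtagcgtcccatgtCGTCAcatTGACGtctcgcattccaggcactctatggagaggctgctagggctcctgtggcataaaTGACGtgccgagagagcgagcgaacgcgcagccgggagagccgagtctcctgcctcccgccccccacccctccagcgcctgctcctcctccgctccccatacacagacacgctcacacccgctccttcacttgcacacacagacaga

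Each of the 3 sequences held 4 matches to the CRE core. Among the 32851 promoters of the RefSeq table, read over the same 250 bases, 17.8% held at least 1 match and 0.137% at least 4, which is 45 promoters including these 3. In Nr4a1 the matches began 233, 213, 69 and 40 bases before the start, in Nr4a2 200, 144, 123 and 111 bases, and in Nr4a3 231, 213, 205 and 147 bases. No match to the full palindrome TGACGTCA, which 1.55% of promoters held, or to the NBRE letters AAAGGTCA, held by 1.34%, was found in these windows on either strand. TATAAA, held by 12.4% of promoters, had 1 match, in Nr4a2 at 164 bases, and neither the STAT pattern TTCNNNGAA (7.02% of promoters) nor the CArG box (1.47%) matched in any of the 5 genes searched. The sequences were rich in G and C, at 74.4% for Nr4a1, 80% for Nr4a2 and 63.6% for Nr4a3, against a median of 52.4% over all promoters. A match is a description of letters and not a shown binding site. In WT_VILI against WT_noVILI, Nr4a3 was at 2.68, Nr4a2 at 0.41 and Nr4a1 at -0.02 (log2, from the authors' deposited table). The part of these matches in the fold changes was not tested.

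**Figure D2:**
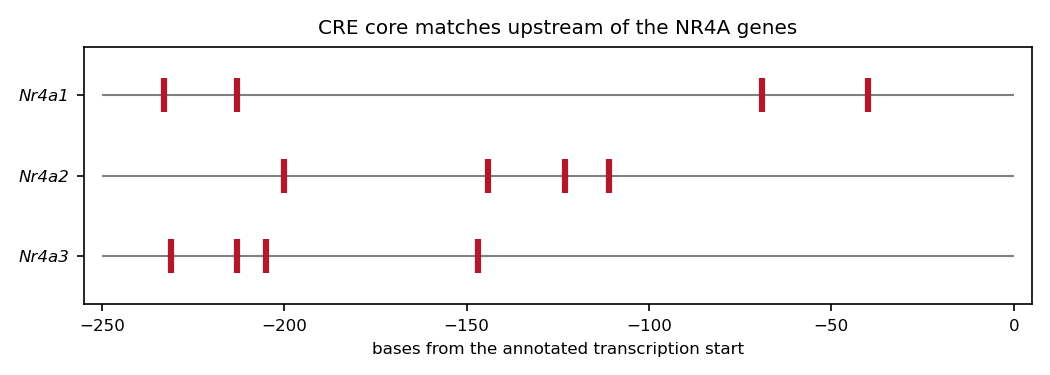
Position of each match to the CRE core in the 250 bases before the annotated start of Nr4a1, Nr4a2 and Nr4a3 (x axis, bases from the start; each red mark is the leftmost base of a match on either strand). Each gene has 4 marks, and those nearest to a start are the Nr4a1 matches at 69 and 40 bases.

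Arc encodes an activity-regulated protein that neurons use to remove glutamate receptors from synapses, and whose protein assembles into capsid-like particles. Its rebuilt levels were 64.3 CPM in KO_VILIhigh, 23.9 CPM in KO_VILIlow, 12.9 CPM in WT_VILI, 2.203 CPM in KO_noVILI and 1.25 CPM in WT_noVILI. It had the widest range of the 7 genes, 51.5-fold between the highest and the lowest group, and the ventilated groups all lay above the unventilated ones. The rise in WT_VILI against WT_noVILI was 11.1-fold, or 3.47 on the log2 scale (implied SE 0.38, adjusted p = 3.46e-17 in the authors' deposited table). In the authors' deposited tables KO_VILIhigh was 5.76-fold above WT_VILI (adjusted p = 1.62e-19), and KO_VILIlow was 2.14-fold above WT_VILI (adjusted p = 0.00704), with implied SE of 0.26 and 0.27 on the log2 scale. The KO_VILIhigh value ranked 8 by p among the 21590 genes of that table. Between KO_noVILI and WT_noVILI the log2 fold change was 0.82 (implied SE 0.51, adjusted p = 0.618 in the authors' deposited table), at the lowest rebuilt levels of any of the 7 genes.

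Because Arc is best known from neurons, neuronal marker genes were set beside it. The summed rebuilt level of 11 such genes was 84.8 CPM in KO_VILIhigh, 90.2 CPM in KO_VILIlow, 104 CPM in WT_VILI, 107 CPM in KO_noVILI and 95.1 CPM in WT_noVILI. Their lowest group was thus KO_VILIhigh, in which Arc was highest, while WT_VILI lay above WT_noVILI for both. Nefl, which encodes a neurofilament subunit, was under 0.5 CPM in each of the 5 groups. With Nefl, 4 of the 11 were under 0.5 CPM in each unventilated group and 2 in each ventilated group. In each comparison, 4 of the 11 had a mean log2 CPM of 1 or more, so few genes carry the sum. The part of neurons in the Arc level was not tested. Of the 11 genes, the authors' edgeR test called 1 in WT_VILI against WT_noVILI, Gap43, at a log2 fold change of 0.83 in the authors' deposited table, and none in the other 3 comparisons. There 2 had an unadjusted p under 0.05 in KO_noVILI against WT_noVILI, 1 in KO_VILIhigh against WT_VILI and 0 in KO_VILIlow against WT_VILI.

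Pim1 encodes a serine/threonine kinase that promotes cell survival and is a known target of JAK and STAT signalling downstream of cytokines. It stood at a rebuilt 120.2 CPM in KO_VILIhigh, 66.1 CPM in KO_VILIlow, 37.7 CPM in WT_VILI, 35.1 CPM in KO_noVILI and 28.7 CPM in WT_noVILI. The ventilated knockout groups stood highest, and the other 3 groups lay between 28.7 and 37.7 CPM. The authors' deposited tables give log2 fold changes of 1.76 in KO_VILIhigh against WT_VILI (implied SE 0.24, adjusted p = 1.85e-10) and 0.90 in KO_VILIlow against WT_VILI (implied SE 0.23, adjusted p = 0.0111). Neither WT_VILI against WT_noVILI (0.38, implied SE 0.18, adjusted p = 0.216) nor KO_noVILI against WT_noVILI (0.29, implied SE 0.17, adjusted p = 0.522) passed in the authors' deposited tables.

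Ier2 encodes a short nuclear protein and is a classical serum-induced gene with a single exon. Its rebuilt levels were 485 CPM in KO_VILIhigh, 203 CPM in KO_VILIlow, 152 CPM in WT_VILI, 78.7 CPM in KO_noVILI and 121 CPM in WT_noVILI. KO_VILIhigh was 3.18-fold above WT_VILI, a log2 fold change of 1.67 (implied SE 0.20, adjusted p = 2.30e-13 in the authors' deposited table). Ier2 fell in KO_noVILI against WT_noVILI by 0.62 on the log2 scale (implied SE 0.19), close to the threshold at adjusted p = 0.0395 in the authors' deposited table. KO_VILIlow against WT_VILI stood at 0.40 (implied SE 0.20, adjusted p = 0.916) and WT_VILI against WT_noVILI at 0.30 (implied SE 0.18, adjusted p = 0.435), both from the authors' deposited tables.

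Ier3 encodes IEX-1, a stress-inducible regulator of cell death and a known NF-kB target. It stood at a rebuilt 407 CPM in KO_VILIhigh, 179 CPM in KO_VILIlow, 158 CPM in WT_VILI, 104 CPM in KO_noVILI and 156 CPM in WT_noVILI. As for Nr4a1, WT_VILI and WT_noVILI were close, with a log2 fold change of -0.02 and an implied 95% interval of -0.35 to 0.31 (adjusted p = 1 in the authors' deposited table). KO_VILIhigh exceeded WT_VILI by 1.37 (implied SE 0.23, adjusted p = 1.66e-06 in the authors' deposited table), whereas KO_VILIlow was at 0.18 (implied SE 0.23, adjusted p = 1 in the authors' deposited table). In KO_noVILI against WT_noVILI the value of -0.58 (implied SE 0.21) did not pass, at adjusted p = 0.108 in the authors' deposited table. The 250 bases before the Ier3 start (chr17:35821463-35821712, + strand, GRCm38.p6, RefSeq) are shown because of that known regulation, with the match to the NF-kB consensus in capitals.
Ier3: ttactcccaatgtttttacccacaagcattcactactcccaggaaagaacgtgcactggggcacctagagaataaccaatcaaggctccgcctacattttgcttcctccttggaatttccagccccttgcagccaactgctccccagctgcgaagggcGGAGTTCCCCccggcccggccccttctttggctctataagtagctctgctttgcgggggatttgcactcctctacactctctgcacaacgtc

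The Ier3 match began 92 bases before the start, and 3.90% of the 32851 promoters held at least 1 on either strand. No CRE core was found in this window or in the 2 listed Pim1 windows. Of the 7 genes, 5 matched the promoter table, and Arc and Ier2 are named only.

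**Figure D3:**
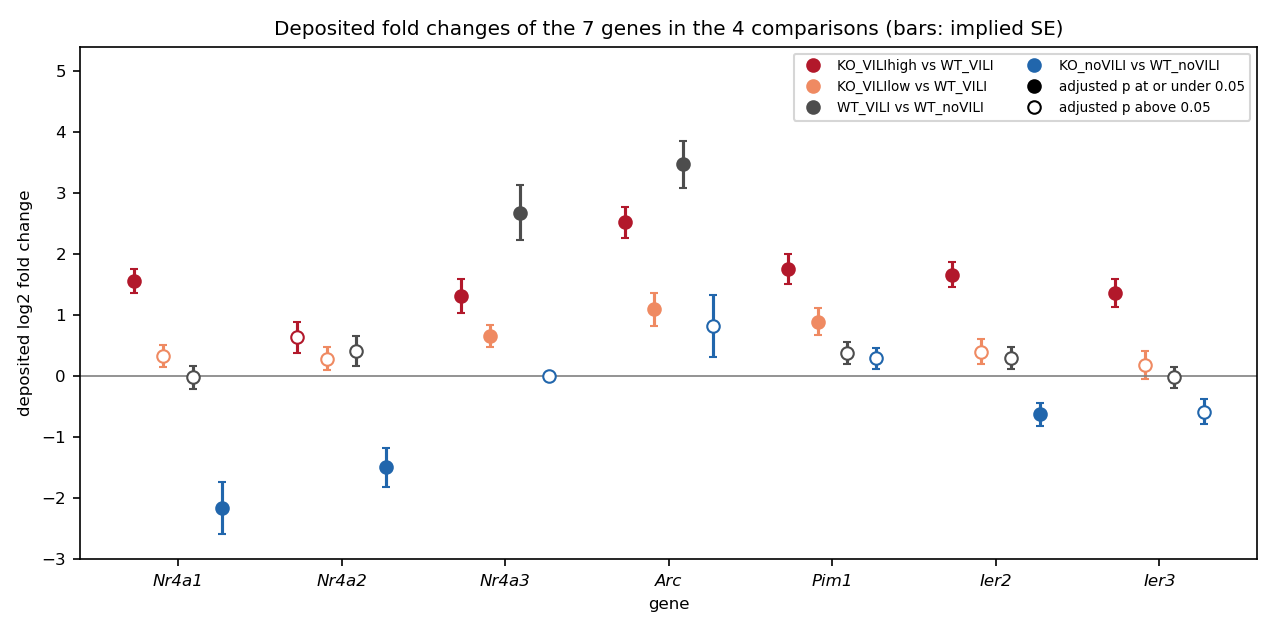
Deposited log2 fold change (y axis) of each gene in the 4 comparisons, with bars for the implied SE and filled circles for an adjusted p at or under 0.05. In KO_VILIhigh against WT_VILI 6 of 7 circles are filled and all lie above 0, and in KO_noVILI against WT_noVILI Nr4a1, Nr4a2 and Ier2 are filled below 0. Nr4a3 has no SE bar in KO_noVILI against WT_noVILI.

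Counted by comparison at a deposited adjusted p of 0.05, KO_VILIhigh against WT_VILI had 6 of the 7 genes higher and none lower, where the shares over all 21590 genes in the authors' deposited table were 1.13% higher and 0.435% lower. Nr4a2 was the exception there. KO_VILIlow against WT_VILI had Nr4a3, Arc and Pim1 higher and none lower, beside 0.676% higher and 0.296% lower of all genes in the authors' deposited table. With Bonferroni adjustment of the deposited p this count was 0, and 1, Arc, at an adjusted p of 0.01. WT_VILI against WT_noVILI had Nr4a3 and Arc higher and none lower, where the authors' deposited table has 4.85% of all genes higher and 4.23% lower. KO_noVILI against WT_noVILI had Nr4a1, Nr4a2 and Ier2 lower and none higher, beside 1.92% lower and 1.45% higher of all genes in the authors' deposited table, and 1, Nr4a1, with Bonferroni adjustment. The members were chosen from these contrasts, so nothing is read from their counts against these shares.

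KO_VILIhigh and KO_VILIlow were never compared in a table of their own, and their difference was taken here from both comparisons with WT_VILI. KO_VILIhigh exceeded KO_VILIlow by 1.43 on the log2 scale for Arc (approximate SE 0.37), 1.27 for Ier2 (0.29), 1.23 for Nr4a1 (0.27) and 1.19 for Ier3 (0.33). The differences were 0.86 for Pim1 (approximate SE 0.33), 0.66 for Nr4a3 (0.33) and 0.35 for Nr4a2 (0.32) on the same scale, the last about as large as its error. A difference of at least 1 was reached by 4 of the 7 genes and by 0.992% of the 13305 genes whose mean log2 CPM was 1 or more in each table. The 13305 genes leave out Arc, at a mean log2 CPM of 0.79 in KO_noVILI against WT_noVILI, although Arc is counted among the 7 here and below. WT_VILI cancels from these differences while its variance is still counted, so the errors are too large.

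Ventilation within the knockout was derived in the same way. KO_VILIhigh against KO_noVILI gave log2 differences of 5.18 for Arc (approximate SE 0.69), 4.00 for Nr4a3, 3.70 for Nr4a1 (0.51), 2.59 for Ier2 (0.33), 2.54 for Nr4a2 (0.47), 1.93 for Ier3 (0.36) and 1.85 for Pim1 (0.34). All 7 were at least 1, beside 4.63% of the 13305 genes. KO_VILIlow against KO_noVILI gave 3.75 for Arc (approximate SE 0.69), 3.34 for Nr4a3, 2.47 for Nr4a1 (0.50), 2.19 for Nr4a2 (0.44), 1.32 for Ier2 (0.33), 0.99 for Pim1 (0.33) and 0.74 for Ier3 (0.35), with 5 of 7 at least 1 beside 3.7% of the 13305 genes. No SE can be given for Nr4a3 because of its exact 0. Had the ventilated knockout tables WT_noVILI as their reference, as the labels list it, the Arc values would be 1.71 in KO_VILIhigh and 0.27 in KO_VILIlow, those of Nr4a3 1.31 and 0.66, and those of Pim1 1.46 and 0.60, also all above 0.

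The change of Nr4a1 on ventilation was larger in knockouts than in wild type by 3.72 on the log2 scale for KO_VILIhigh (approximate SE 0.47) and by 2.49 for KO_VILIlow (0.47). The parts of this KO_VILIlow difference were a log2 fold change of -2.16 before ventilation (KO_noVILI against WT_noVILI) and of 0.33 after it (KO_VILIlow against WT_VILI) in the authors' deposited tables. Nr4a2 likewise differed by 2.13 for KO_VILIhigh (approximate SE 0.40) and 1.78 for KO_VILIlow (0.37), with -1.49 before ventilation and 0.29 after it for KO_VILIlow in the authors' deposited tables. For Arc the KO_VILIlow value was 0.27 (approximate SE 0.58), within its error, and the KO_VILIhigh value was 1.71 (0.57). Ier2 differed by 2.29 for KO_VILIhigh (approximate SE 0.28) and 1.03 for KO_VILIlow (0.28), and Ier3 by 1.95 (0.31) and 0.76 (0.31). Pim1 differed by 1.46 for KO_VILIhigh (approximate SE 0.29) and 0.60 for KO_VILIlow (0.28). Nr4a3 differed by 1.31 and 0.66 in that order, without an SE. These differences were described and not tested, since the genes were chosen with them in view.

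**Figure D4:**
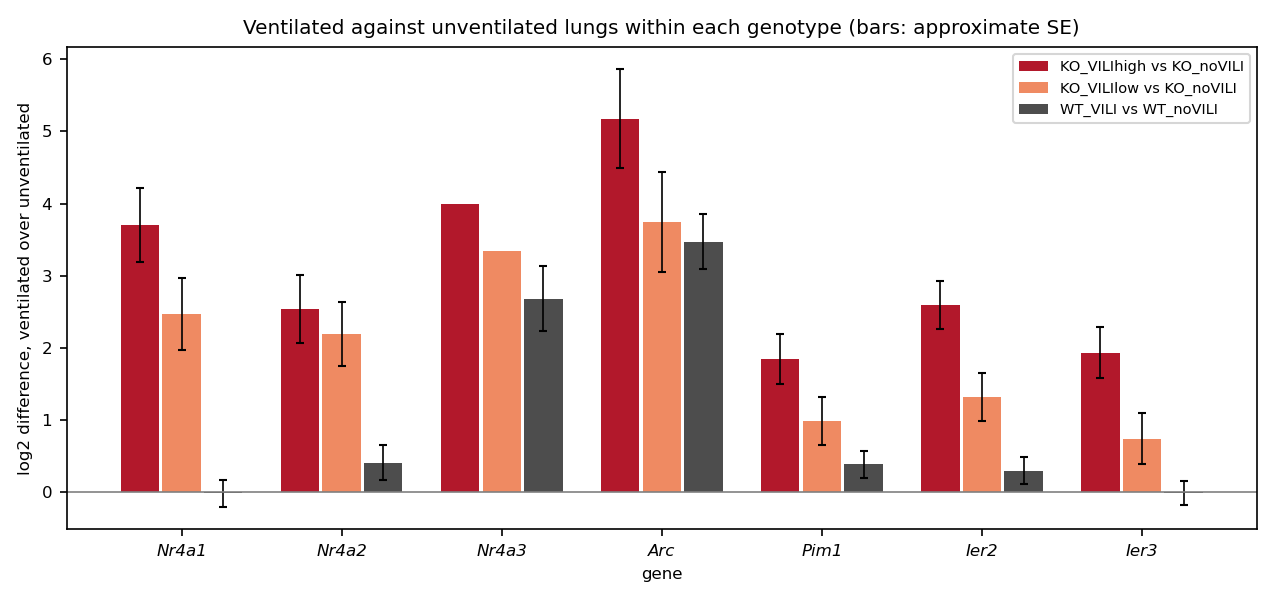
Log2 difference of ventilated over unventilated lungs for each gene (y axis) in KO_VILIhigh, KO_VILIlow and WT_VILI, each against the unventilated lungs of its genotype (coloured bars), with black error lines for the approximate SE. Nr4a1 stands at 3.70, 2.47 and -0.02, while Arc stands at 5.18, 3.75 and 3.47. Nr4a3 has no error lines in the knockout groups.

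Over the 5 groups the genes fell into different shapes. Measured as the root mean square difference of rebuilt log2 levels, each centred on its own mean, Ier2 and Ier3 were closest to each other of all pairs (0.27), followed by Pim1 with Ier2 (0.35) and Pim1 with Ier3 (0.36). Nr4a1 was nearest to Nr4a2 (0.44), whereas Nr4a3 lay nearer to Arc (0.57) than to Nr4a1 (1.04) or Nr4a2 (1.05).

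Among 12787 genes at a mean log2 CPM of 1 or more and with no exact 0, the closest to Nr4a1 over these 5 values were the matricellular gene Cyr61 (0.17) and the transcription factor genes Egr3 (0.22) and Fos (0.25). Closest to Nr4a3 were Srxn1, an antioxidant enzyme gene, and the small GTPase gene Rasd1 (both 0.13) and the metallothionein gene Mt1 (0.15). Arc was nearest to the hyaluronan synthase gene Has1 (0.22), Sfn (0.28) and the neutrophil chemokine gene Cxcl1 (0.38). For Pim1 the nearest genes were Sertad1 (0.13), Tnfaip2 (0.14) and Cd80 (0.15), for Ier2 Nfkbiz (0.11), Dusp5 (0.18) and Fgl2 (0.20), and for Ier3 Nfkbid (0.12), Mmp25 (0.13) and Cd83 (0.14).

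Nr4a2 was nearest to Plin1 and Adipoq, genes of fat cells (0.19 and 0.20), and to the phosphatase gene Dusp1 (0.22). Plin1 stood at 10.6 CPM in KO_VILIhigh, 5.60 CPM in KO_VILIlow, 5.44 CPM in WT_VILI, 1.37 CPM in KO_noVILI and 4.28 CPM in WT_noVILI. Adipoq stood at 13.2 CPM in KO_VILIhigh, 9.03 CPM in KO_VILIlow, 6.18 CPM in WT_VILI, 2.27 CPM in KO_noVILI and 6.59 CPM in WT_noVILI. Adipoq was thus lower in WT_VILI than in WT_noVILI, where Nr4a2 had the higher value in WT_VILI. These are single genes named by their likeness, no list of fat cell genes was counted, and the part of fat cells was not tested.

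Other genes of the pathways in which these 7 act were counted from lists that leave the 7 out, and some genes, such as Fosb and Junb, stand in more than 1 list. The lists were written with earlier results of these data known, so their counts are a description and not independent evidence. Of 40 further immediate early genes, 26 were higher and none lower in KO_VILIhigh against WT_VILI, with a median log2 fold change of 0.93, led by the transcription factor genes Egr1 (2.13), Fosb (2.20) and Junb (1.91) in the authors' deposited table. KO_VILIlow against WT_VILI had 2 of 40 higher, Ier5l at 1.22 and the phosphatase gene Dusp5 at 1.01, with a median of 0.25 in the authors' deposited table. There 16 of the 40 had an unadjusted p under 0.05 in the authors' edgeR test. WT_VILI against WT_noVILI had 25 of 40 higher and 1 lower, with a median of 0.77, led by Maff (2.55), Nfil3 (3.32) and Atf3 (3.08) in the authors' deposited table. KO_noVILI against WT_noVILI had 11 lower and 2 higher, with a median of -0.22, led by Btg2 (-1.40), Cyr61 (-1.66) and Rgs2 (-1.13) in the authors' deposited table. The median over all 21590 genes was 0 in each of the 4 tables. Of these genes, 1.13% were called higher and 0.435% lower in KO_VILIhigh against WT_VILI, and 0.676% and 0.296% in KO_VILIlow against WT_VILI. The shares were 4.85% and 4.23% in WT_VILI against WT_noVILI, and 1.45% and 1.92% in KO_noVILI against WT_noVILI.

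Of the genes known to respond to cyclic AMP, 11 of 12 listed symbols were in the tables. They were higher in 7 of 11 cases in KO_VILIhigh against WT_VILI, and in WT_VILI against WT_noVILI 6 were higher and 1 lower, led by the growth factor gene Areg at 4.44 in the authors' deposited table. In KO_noVILI against WT_noVILI 6 of the 11 were lower and none higher, with a median of -0.67, led by Dusp1 (-1.07), Fosb (-1.44) and the clock gene Per1 (-0.67) in the authors' deposited table. In KO_VILIlow against WT_VILI none passed the authors' edgeR test, although 5 of 11 had an unadjusted p under 0.05. The 12 genes of the machinery upstream, which encode CREB, its coactivators, protein kinase A subunits and SIK kinases, showed little change: the authors' edgeR test called Sik3 higher (0.60) and Creb1 lower (-0.58) in WT_VILI against WT_noVILI in the authors' deposited table. None was called in the other 3 comparisons, where 1 gene, in KO_VILIhigh against WT_VILI, had an unadjusted p under 0.05. The retinoid X receptor genes Rxra, Rxrb and Rxrg, partners of NR4A receptors, were called in none of the 4 comparisons of the authors' edgeR tables, and none had an unadjusted p under 0.05.

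**Figure D5:**
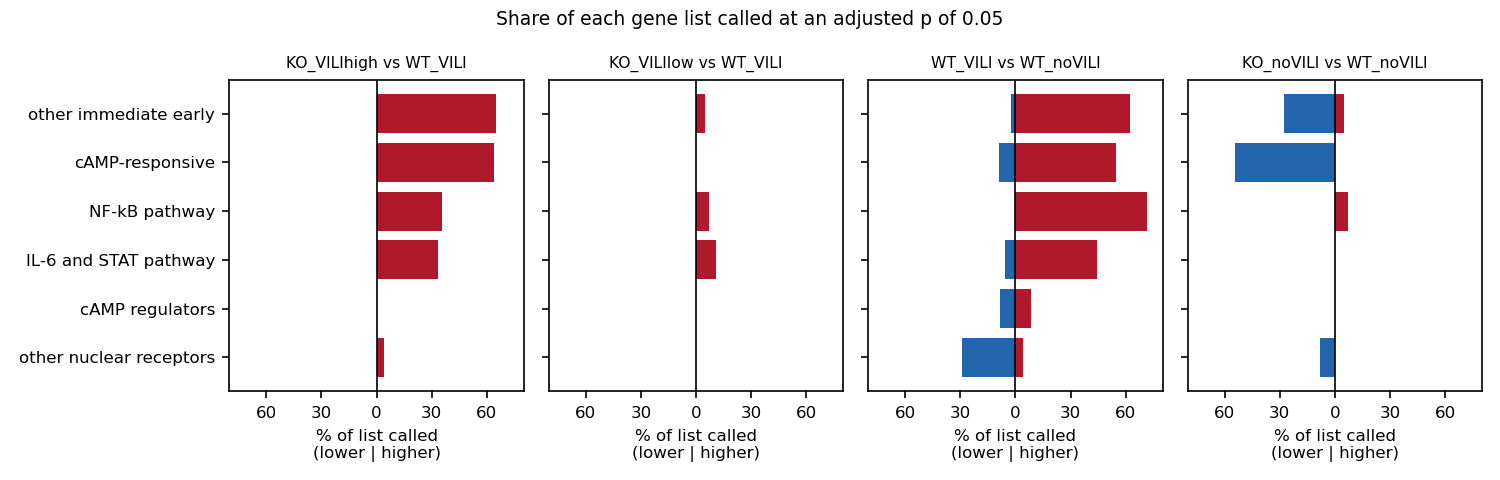
Share of each gene list (x axis, percent of the list's genes in the tables) called at an adjusted p of 0.05, higher in red to the right and lower in blue to the left, in the 4 comparisons. Other immediate early genes reach 26 of 40 higher in KO_VILIhigh against WT_VILI, and cAMP-responsive genes 6 of 11 lower in KO_noVILI against WT_noVILI.

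In the pathway upstream of Pim1, genes of IL-6 family cytokines, JAK kinases, STAT factors and their targets were higher in 6 of 18 cases in KO_VILIhigh against WT_VILI, led by the cytokine genes Lif (2.56) and Osm (2.18) and the feedback inhibitor gene Socs3 (2.18) in the authors' deposited table. KO_VILIlow against WT_VILI had 2 higher, Socs3 at 1.52 and Lif at 1.49 in the authors' deposited table. There 6 of the 18 had an unadjusted p under 0.05 in the authors' edgeR test. In WT_VILI against WT_noVILI 8 were higher and 1 lower, with Il6 at 4.65, Bcl2l1 at 1.35 and Socs3 at 1.54 in the authors' deposited table. In KO_noVILI against WT_noVILI the authors' edgeR test called none of the 18, and none had an unadjusted p under 0.05.

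For Ier3, NF-kB subunits, inhibitors and targets were higher in 5 of 14 cases in KO_VILIhigh against WT_VILI, with Cxcl1 (2.61), Tnf (2.01) and Il1b (1.73) in the authors' deposited table. Cxcl1 was the single one called in KO_VILIlow against WT_VILI, at 0.92 in the authors' deposited table, and 2 of 14 had an unadjusted p under 0.05 in the authors' edgeR test. In WT_VILI against WT_noVILI 10 of 14 were higher and none lower, with Cxcl1 at 3.21, Tnf at 3.27 and the feedback gene Tnfaip3 at 1.30 in the authors' deposited table. Ier3 itself was at -0.02 in that comparison in the authors' deposited table. KO_noVILI against WT_noVILI had 1 of 14 higher, Cxcl1 at 1.63, with 3 at an unadjusted p under 0.05, and Ier3 at -0.58 in the authors' deposited table. Among relatives of Pim1 and the IER genes, Ier5 was higher by 1.47 and Ier5l by 1.29 in KO_VILIhigh against WT_VILI, and in KO_noVILI against WT_noVILI Pim3 was lower (-0.76) and Ier5 higher (0.46) in the authors' deposited tables.

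Markers of other cells also differed between the groups. All 11 neutrophil genes were higher in WT_VILI against WT_noVILI, 2 were higher in KO_VILIhigh and 1 in KO_VILIlow against WT_VILI, and 1 in KO_noVILI against WT_noVILI. Their summed rebuilt level was 1301 CPM in KO_VILIhigh, 968 CPM in KO_VILIlow, 758 CPM in WT_VILI, 263 CPM in KO_noVILI and 236 CPM in WT_noVILI. That of 12 monocyte and macrophage genes was 802, 752, 549, 710 and 682 CPM in the same order, and that of 9 endothelial genes 4676, 5101, 4632, 6023 and 4997 CPM. Cardiac muscle genes, which pulmonary vein walls also express, summed to 798, 1179.5, 485, 287 and 734 CPM over 8 genes in that order. All 8 of them were lower in KO_noVILI against WT_noVILI, where Nr4a1, Nr4a2 and Ier2 were called lower. In KO_VILIlow against WT_VILI 7 of the 8 were higher, beside Nr4a3, Arc and Pim1. The authors' edgeR test called none of the 8 in KO_VILIhigh against WT_VILI, where 3 had an unadjusted p under 0.05 and 6 of the 7 described genes were called. All 6 B cell genes were lower both in KO_noVILI against WT_noVILI and in KO_VILIlow against WT_VILI (median log2 fold change -2.03 in the authors' deposited table for KO_VILIlow). Of 5 smooth muscle genes, 3 were lower in KO_noVILI against WT_noVILI. The summed levels over the groups in that order were 91.6, 31.1, 94.7, 50.02 and 144 CPM for B cells and 958, 963, 703, 574 and 859 CPM for smooth muscle. Alveolar epithelial genes summed to between 23472 and 26438 CPM, and T and NK cell genes to between 71.6 and 125 CPM. Red cell genes, of which 4 of 7 symbols were in the tables, summed to 3078 CPM in KO_VILIhigh, 3395 CPM in KO_VILIlow, 899.5 CPM in WT_VILI, 6242 CPM in KO_noVILI and 3950.0 CPM in WT_noVILI. Of these 4, 3 were higher in KO_VILIhigh against WT_VILI, beside the 6 described genes called there, and 3 were lower in WT_VILI against WT_noVILI. None of the 4 was called in KO_VILIlow against WT_VILI, but all 4 had an unadjusted p under 0.05 there in the authors' edgeR test. Their median log2 fold change against WT_VILI was 2.01 in both KO_VILIlow and KO_VILIhigh. Of the 12 monocyte and macrophage genes, 3 were higher in KO_VILIhigh and 2 in KO_VILIlow against WT_VILI, and none was lower in either. WT_VILI against WT_noVILI had 1 of them higher and 2 lower, and KO_noVILI against WT_noVILI 2 higher and 1 lower. Defining markers under 0.5 CPM among these lists were Nppa in KO_noVILI for cardiac muscle and Camp in WT_noVILI for neutrophils. By summed level, neutrophil genes had the same order of groups as Nr4a3, Arc and Pim1, apart from the tie of Nr4a3. Cardiac and smooth muscle genes were both lowest in KO_noVILI, as were Nr4a1, Nr4a2, Ier2 and Ier3. The part of any of these cell types in the levels of the 7 genes was not tested.

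The mature transcripts of the 7 genes differed in length and in AU-rich pentamers, which mark many short-lived mRNAs. In the longest coding transcript of GENCODE M21, Ier3 had 5 ATTTA pentamers in a 3' UTR of 613 bases and Nr4a1 had 3 in 543 bases. A density as high was found in 1.92% of 17126 genes for Ier3 and in 5.99% for Nr4a1. Pim1 had 5 in 1365 bases, Nr4a3 5 in 3093 bases and Nr4a2 3 in 1326 bases. Densities as high as theirs were found in 15.5% of the 17126 genes for Pim1, 44.2% for Nr4a3 and 32.7% for Nr4a2. The median over these genes was 1.33 per kb, beside 1.62 per kb for Nr4a3. Arc and Ier2 had none, in 1668 and 755 bases. Gene spans of Ier3 (1240 bases), Ier2 (1522 bases) and Arc (3488 bases) were short beside the median of 18584 bases over 19012 genes, whereas Nr4a1 (20527 bases), Nr4a2 (17174 bases) and Nr4a3 (41295 bases) were not.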

How the data were processed

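Whole-lung RNA of 5 groups was sequenced by the submitters, who give Bowtie 1.1.2, R 3.0.1, edgeR and build mm9 in their processing notes. Count method, gene filter and edgeR settings are not given in the sources used here, and depth per library is unknown, so no interval from counts was made. The authors' deposited tables hold log2 fold changes and the log2 of mean CPM (columns logFC and logCPM, per the file headers), and the p-value of each gene with its adjusted value (PValue and FDR, per the file headers). All 4 tables list the same 21590 genes, joined by Entrez identifier.

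A gene was called where its deposited adjusted p was at or under 0.05, and no test was added. The level of each group was worked out from the mean abundance and the fold change, taking groups of equal size. WT_noVILI and KO_noVILI came from the unventilated table and the other groups from their own tables. The labels list WT no VILI under every table, but over 10326 genes the rebuilt reference level of the KO_VILIlow and KO_VILIhigh tables lay a median 0.0486 and 0.0449 log2 from WT_VILI, against 0.205 and 0.204 log2 from WT_noVILI, after centring. For Arc these tables' reference stood at 11.2 CPM in both, near WT_VILI at 12.9 CPM and not WT_noVILI at 1.25 CPM. The match to WT_VILI was nearer but not exact, with 52.6% of genes within 0.05 log2 for KO_VILIlow and 59.3% for KO_VILIhigh. WT_noVILI rebuilt from the unventilated and the WT_VILI table differed by a median 0.006 log2, with 99.3% of genes within 0.05. Both ventilated knockout tables were read as comparisons with WT_VILI. The 3 derived contrasts add or subtract deposited fold changes and sum the variances, with implied SE from the deposited p by the normal quantile.

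The members and the 21 gene lists were chosen with earlier results of these data known. Genes named are the 7 members, up to 3 called genes with the smallest p per list and comparison, the 3 nearest patterns per member, Cldn4, Xist and Ddx3y. Neuronal Nefl, the lower-ranked Ier5 and Ier5l and the RXR genes were named after their values were seen. Pathway lists hold 3 to 40 genes, and 1 gene of the red cell list was left out and is not reported here. Motifs were searched on both strands of 250 upstream bases: the CRE core TGACG, its palindrome TGACGTCA (which holds the core on each strand), the NBRE as AAAGGTCA, the TATA box as TATAAA, the STAT pattern as TTCNNNGAA, and the CArG box and NF-kB consensus by name. Matches that overlap were each counted. Transcript features used the basic GENCODE M21 transcript with the longest coding sequence. The accuracy of the rebuilt levels, the implied SE and the derived contrasts was not tested against libraries, because no value per library was used. Software was matplotlib 3.10.9, scipy 1.17.1, pandas 2.3.3 and numpy 2.4.6 under Python 3.11.15.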

Additional observations from a re-analysis of the deposited data

How the results depend on the processing

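Counts of members called kept within 1.5 times of the reported count under Benjamini-Hochberg adjustment over genes whose mean log2 CPM was 1 or more in all 4 comparisons, and in WT_VILI against WT_noVILI and KO_VILIhigh against WT_VILI under every alternative tried. Bonferroni adjustment left 1 of 3 in KO_noVILI against WT_noVILI. In KO_VILIlow against WT_VILI the count of 3 became 1 at an adjusted p of 0.01, 0 under Bonferroni adjustment of the authors' edgeR p (4 of 7 had an unadjusted p under 0.05) and 1 with a minimum log2 fold change of 1, by the stricter construction of each. Centring on the median of expressed genes, for which no call was remade, changed the sign of 2 of the 28 deposited fold changes, both uncalled and near 0 in WT_VILI against WT_noVILI: Nr4a1 became 0.0049 and Ier3 0.0038. All 7 members remained above 0 in each of the 3 derived contrasts under every alternative, also when the ventilated knockout tables were read against WT_noVILI, where the Arc and Pim1 values given with the derived contrasts moved by more than their SE, and those of Nr4a3, which has no such SE, by more than the implied SE of its WT_VILI fold change. The KO_VILIhigh against KO_VILIlow values cannot move under that reading, because the shared group cancels. Of the 13305 genes with a mean log2 CPM of 1 or more in each table, 48.3% were above 0 in KO_VILIhigh against KO_VILIlow. The shares were 46.6% in KO_VILIlow against KO_noVILI and 46.2% in KO_VILIhigh against KO_noVILI. The members were chosen with these contrasts in view, so nothing is read from 7 of 7. Wild type levels rebuilt from other tables differed from those given by -0.21 to 0.06 log2, the largest for Arc. No paired analysis was possible because no value per library was used, and for the same reason no replicate could be left out. Depth is unknown, and the estimates are least certain for Arc in unventilated lungs, at 2.203 and 1.25 CPM in KO_noVILI and WT_noVILI.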

Other observations

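The number of CRE cores upstream of the NR4A genes, seen here after their values were known, led to a look at other genes with as many. At least 4 matches in the 250 upstream bases were found for 37 further genes of the tables. In WT_VILI against WT_noVILI 9 of these 37 were higher and none lower in the authors' deposited table, beside 4.86% higher and 4.16% lower of 16469 genes matched to a promoter. Among genes at a mean log2 CPM of 1 or more, 9 stood among 33, beside 7.11% of 10896. They were Dusp8 (1.69), which encodes a MAP kinase phosphatase, the elongation factor gene Ell2 (1.05), Purb (0.97), Galnt11 (0.79), Coq10b (0.69), Aff4 (0.68), Trp53inp2 (0.63), Ube2j1 (0.52) and Chpf (0.48), as log2 fold changes in the authors' deposited table, all named after their values were seen. With at least 3 matches, 20 of 180 genes were higher and 5 lower. In KO_VILIhigh against WT_VILI none of the 37 was called by the authors' edgeR test. KO_VILIlow against WT_VILI had none called either, and KO_noVILI against WT_noVILI had 1 lower, Braf, at -0.48 in the authors' deposited table. Over the 16469 genes, 1.11% were higher and 0.449% lower in KO_VILIhigh against WT_VILI. The shares were 0.625% and 0.267% in KO_VILIlow against WT_VILI, and 1.37% and 1.94% in KO_noVILI against WT_noVILI. The absence of calls among 37 genes in the ventilated knockout comparisons therefore lies near these shares. Of the 37, 1 in KO_VILIhigh and 0 in KO_VILIlow had an unadjusted p under 0.05. These are counts without a test, and G and C content was not matched.

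Of 24 other nuclear receptor genes, 7 were lower in WT_VILI against WT_noVILI and 1 higher, with a median log2 fold change of -0.26, led by the clock repressor gene Nr1d1 (-1.46), Nr2f2 (-1.76), a regulator of vein identity, and the retinoic acid receptor gene Rarg (-1.53) in the authors' deposited table. In KO_noVILI against WT_noVILI Nr1d1 (-0.72) and Nr1d2 (-0.66) were lower, and in KO_VILIhigh against WT_VILI Nr1d1 was higher (0.76), in the authors' deposited tables. Of 9 genes for synaptic partners of Arc, such as glutamate receptor subunits, Gria3 (0.62) and Gria1 (0.60) were higher in WT_VILI against WT_noVILI in the authors' deposited table. Of 7 genes of SRF and its cofactors, which drive many immediate early genes, Srf was higher in KO_VILIhigh against WT_VILI (0.73) and in WT_VILI against WT_noVILI (0.90) in the authors' deposited tables. In the same list Myocd was higher in KO_VILIlow against WT_VILI (1.62) and Elk3 was lower in WT_VILI against WT_noVILI (-0.39) in the authors' deposited tables.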
